A study of Mus musculus with 9 samples.

Results

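The regions described here are stretches of open chromatin near 10 genes of the fibroblast growth factor (Fgf) pathway in cells of the embryonic mouse cochlear duct. The genes are the ligands *Fgf8*, *Fgf10* and *Fgf20*, the receptors *Fgfr1*, *Fgfr2* and *Fgfr3*, the feedback inhibitors *Spry1* and *Spry2*, and the Ets-family transcription factors *Etv4* and *Etv5*. A peak was counted for a gene when its summit lay nearest to a start site of that gene, within 500 kb, among the start sites of all protein-coding transcripts. By this rule 404 of 286921 peaks belonged to the 10 genes, and after peaks no more than 100 bp apart had been joined they formed 102 of 69415 regions. A region was included when at least 1 of its peaks met the rule. At 3 regions other peaks lay nearest to another gene: 2 of 10 peaks of Fgf20 -47 bp, 4 of 9 of Etv5 -108.6 kb and 2 of 6 of Fgfr3 -26.0 kb met the rule.

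Secreted Fgf ligands bind receptor tyrosine kinases of the Fgfr family on neighbouring cells and switch on Ras and MAP kinase signalling. *Etv4* and *Etv5* are transcribed in response to this signal and carry it to target genes, while the Sprouty proteins encoded by *Spry1* and *Spry2* are induced by the signal and dampen it. In the inner ear, *Fgf10* acts early in the formation of the otocyst and cochlear duct, *Fgf20* and *Fgfr1* are needed for the growth of the prosensory domain and its hair cells, *Fgf8* comes from inner hair cells, and *Fgfr3* governs the choice of pillar cell fate.

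ATAC-seq, in which a transposase cuts accessible DNA, was run on cells sorted from mice heterozygous for an EGFP knock-in at the *Sox2* gene (B6;129S-Sox2tm2Hoch/J), an allele that all groups shared. Sox2-EGFPhigh+ cells, taken from the brightest gate, came from 2 samples each at embryonic day (E) 12, E14.5 and E16. Sox2-EGFP- cells, taken from the dimmest gate, came from 1 sample at E14.5 and 2 samples at E16, and there was no E12 sample of them. Each sample pooled the cochlear ducts of a litter after removal of the spiral ganglion, and cells of intermediate brightness were left out, so EGFP brightness is a proxy for the prosensory state. The separate cell type tags contradicted titles and source names for 3 E16 samples, and the titles were followed.

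Each sample has its own list of peaks, ordered here by the -log10 p of the peak, so that rank 1 is the highest peak of its list and tied peaks share the mean of their ranks. The lists held 7577 and 13817 peaks at E12, 22962 to 66332 in the 4 later Sox2-EGFPhigh+ samples and 23302 to 23899 in the 3 Sox2-EGFP- samples. They carry no reads, so list length is the only guide used here to what a sample could detect, and a missing peak is not evidence of closed chromatin. By the study's own sample table the E12 samples had the fewest reads, and their lists are the shortest. Among the later samples list length did not follow the number of reads. The E14.5 Sox2-EGFP- sample had the most reads. E16 Sox2-EGFPhigh+ replicate 2 had fewer reads and a much longer list. The percent of reads in peaks also differed widely between samples. A rank cannot exceed the length of its list, so where lists differ in length the percent of the list (100 times the rank over the number of peaks) is given too. Each listed peak had a partner in some other list of the same type, a filter of the authors that builds in sharing within a type. Among the 20000 highest peaks of each list, prosensory marker genes (*Sox2*, *Isl1*, *Eya1*, *Jag1*, *Lfng*) held 19 to 27 peaks in the 4 later Sox2-EGFPhigh+ samples and 11 to 14 in the Sox2-EGFP- samples. Markers of mesenchyme (*Pou3f4*, *Tbx18*, *Twist1*, *Prrx1*) held 0 to 3 and 10 to 14 peaks, those of endothelium 1 to 5 and 5 to 7, epithelium 8 to 18 and 5 to 7, neurons 3 to 4 and 2 to 5, glia 2 to 5 and 1 in every sample, and macrophages 0 to 1 and 0, with *Spi1*, *Csf1r* and *Ptprc* at 0. The part of mesenchyme or endothelium in the differences between cell types below was not tested.

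Sequences of 300 bases around the summit are printed for 7 regions that the results turn on. These are distal regions found in Sox2-EGFPhigh+ cells alone near *Fgf8*, *Fgf20*, *Fgfr1* and *Spry1*, the *Fgf10* region over a reported otic element, the *Fgfr1* intron region with better ranks in Sox2-EGFPhigh+ cells, and the *Fgfr2* region seen in every Sox2-EGFP- sample alone. They read 5′ to 3′ on the plus strand of mm9, and regions are named by gene and distance of the summit from the nearest start site of the gene, negative upstream. The lone capital at position 151 marks the summit base, and runs of capitals mark matches to the Sox letters CCTTTGT or the Tead letters GGAATG on either strand.
Fgf8 +24.7 kb (chr19:45792373-45792672): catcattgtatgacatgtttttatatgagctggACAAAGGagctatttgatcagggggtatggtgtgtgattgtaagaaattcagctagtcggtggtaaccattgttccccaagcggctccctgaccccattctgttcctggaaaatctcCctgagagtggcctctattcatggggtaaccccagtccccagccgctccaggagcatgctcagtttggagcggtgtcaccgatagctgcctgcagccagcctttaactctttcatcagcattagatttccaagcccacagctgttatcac
Fgf10 -2.8 kb (chr13:119500560-119500859): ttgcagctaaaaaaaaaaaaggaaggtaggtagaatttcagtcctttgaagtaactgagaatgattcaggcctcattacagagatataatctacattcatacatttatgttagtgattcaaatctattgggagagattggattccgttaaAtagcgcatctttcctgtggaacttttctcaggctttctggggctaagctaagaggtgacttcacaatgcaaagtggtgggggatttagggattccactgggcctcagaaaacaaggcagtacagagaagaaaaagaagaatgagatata
Fgf20 +135.5 kb (chr8:41236661-41236960): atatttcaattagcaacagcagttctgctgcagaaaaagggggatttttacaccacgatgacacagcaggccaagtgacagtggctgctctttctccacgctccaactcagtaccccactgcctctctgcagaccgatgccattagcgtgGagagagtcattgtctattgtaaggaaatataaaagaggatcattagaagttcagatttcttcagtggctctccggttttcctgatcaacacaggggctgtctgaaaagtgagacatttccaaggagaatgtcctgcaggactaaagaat
Fgfr1 -30.2 kb (chr8:26593813-26594112): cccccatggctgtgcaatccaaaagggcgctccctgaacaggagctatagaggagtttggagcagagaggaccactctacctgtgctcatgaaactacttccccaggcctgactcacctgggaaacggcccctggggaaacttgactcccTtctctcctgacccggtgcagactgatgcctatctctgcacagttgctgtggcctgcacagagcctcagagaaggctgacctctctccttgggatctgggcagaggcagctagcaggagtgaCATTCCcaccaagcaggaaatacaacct
Fgfr1 +4.7 kb (chr8:26647321-26647620): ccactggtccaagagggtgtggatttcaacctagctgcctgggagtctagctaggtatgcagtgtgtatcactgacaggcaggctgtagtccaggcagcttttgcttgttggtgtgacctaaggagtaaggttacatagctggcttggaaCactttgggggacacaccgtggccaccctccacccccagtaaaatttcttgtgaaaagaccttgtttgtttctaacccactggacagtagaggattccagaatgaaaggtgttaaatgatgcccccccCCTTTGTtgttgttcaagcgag
Fgfr2 +873 bp (chr7:137408504-137408803): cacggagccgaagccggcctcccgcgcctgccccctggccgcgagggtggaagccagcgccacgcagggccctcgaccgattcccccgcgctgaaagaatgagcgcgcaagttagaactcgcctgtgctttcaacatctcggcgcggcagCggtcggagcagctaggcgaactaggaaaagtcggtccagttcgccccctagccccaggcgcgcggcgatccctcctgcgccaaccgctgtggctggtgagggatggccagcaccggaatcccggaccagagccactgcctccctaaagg
Spry1 +17.2 kb (chr3:37556032-37556331): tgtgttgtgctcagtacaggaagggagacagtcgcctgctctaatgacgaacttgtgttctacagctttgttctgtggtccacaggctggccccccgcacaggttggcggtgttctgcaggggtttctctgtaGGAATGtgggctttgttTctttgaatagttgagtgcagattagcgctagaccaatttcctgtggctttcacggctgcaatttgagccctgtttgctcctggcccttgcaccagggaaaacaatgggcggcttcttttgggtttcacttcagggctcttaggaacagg

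Open chromatin near the Fgf genes lay mostly away from their start sites. Of the 102 regions, 13 had a summit within 1 kb of a start site, 15 lay between 1 and 10 kb, 54 between 10 and 100 kb and 20 beyond 100 kb. By the annotation 56 summits were intergenic, 41 intronic, 3 in coding exons and 2 in untranslated regions. *Fgfr2* held the most regions (24), followed by *Fgfr1* (16), *Etv5* (15), *Spry1* (10), *Fgf20* (8), *Fgfr3* and *Spry2* (7 each), *Etv4* (6), *Fgf10* (5) and *Fgf8* (4), against a median of 2 and a 90th percentile of 9 over the 17076 genes with a region. The stretch of genome nearer to one gene than to others also differs. Per 100 kb of it, *Fgfr3* had 12.1 regions, *Fgf8* 8.94, *Fgfr1* 7.72, *Etv5* 7.61 and *Etv4* 7.44, whereas *Fgf20* had 2.25 and *Fgf10* 0.979, and the median gene had 4.82.

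**Figure D1:**
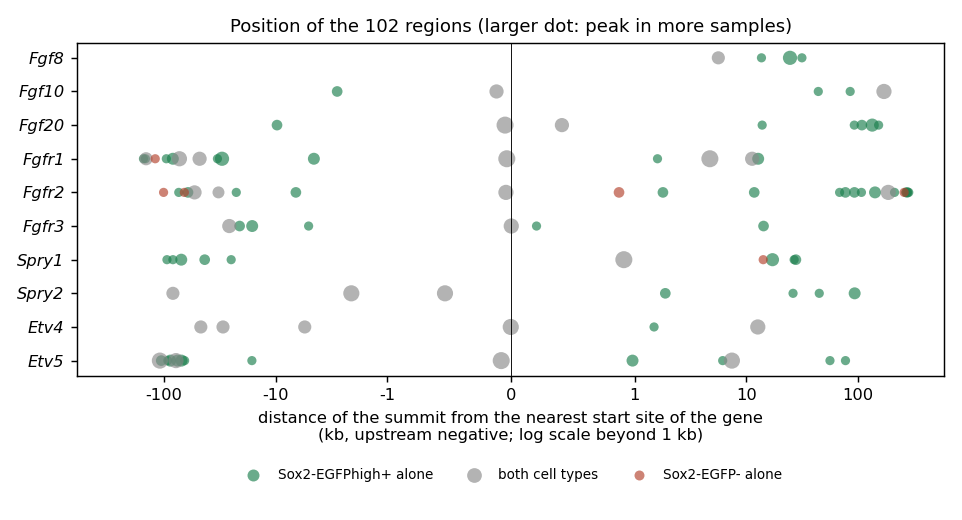
Distance of each of the 102 region summits from the nearest start site of its gene in kb (x axis, linear within 1 kb and logarithmic beyond), for the 10 genes (y axis), coloured by the cell type whose samples held a peak and sized by the number of samples. The 13 regions within 1 kb were mostly in both cell types, and *Fgf8* alone has no dot there.

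Most of these regions were seen in Sox2-EGFPhigh+ cells alone, at the share found over the whole genome. Peaks came from Sox2-EGFPhigh+ samples alone at 66 regions (64.7%, against 65.5% of all regions), from both cell types at 30 (29.4%, against 28.8%) and from Sox2-EGFP- samples alone at 6 (5.88%, against 5.63%). For the 89 distal regions, over 1 kb from a start site, the split was 64, 20 and 5. Both cell types shared 22.5% of these, against 14.6% of all distal regions, Sox2-EGFPhigh+ cells alone held 71.9%, against 78.5%, and Sox2-EGFP- cells alone 5.62%, against 6.89%. Within 1 kb of a start site, 10 of 13 regions were in both types (76.9%, against 80.8%). A peak in all 9 samples was found at 5 of the 102 regions (4.9%, against 7.32%). Of the 66 regions, 31 had peaks only in the samples with the longest lists, E14.5 replicate 1 and E16 replicate 2 (30.4% of the 102, against 35.4% of all regions). With both of these samples left out and the replication filter applied anew, 50 regions remained, split 15, 19 and 16 in the same order.

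By role, the share of regions in Sox2-EGFPhigh+ cells alone was 70.6% for the ligands, 63.8% for the receptors, 70.6% for the Sprouty genes and 57.1% for *Etv4* and *Etv5*, beside 65.5% of all regions. The 17 ligand regions were split 12, 5 and 0 between Sox2-EGFPhigh+ alone, both and Sox2-EGFP- alone, and the 47 receptor regions 30, 12 and 5. The 17 Sprouty regions were split 12, 4 and 1, and the 21 *Etv4* and *Etv5* regions 12, 9 and 0. Of the 6 regions without a Sox2-EGFPhigh+ peak, 4 belonged to *Fgfr2*, 1 to *Fgfr1* and 1 to *Spry1*. Regions of 1 gene share a locus and are not replicates, so these counts were not tested.

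**Figure D2:**
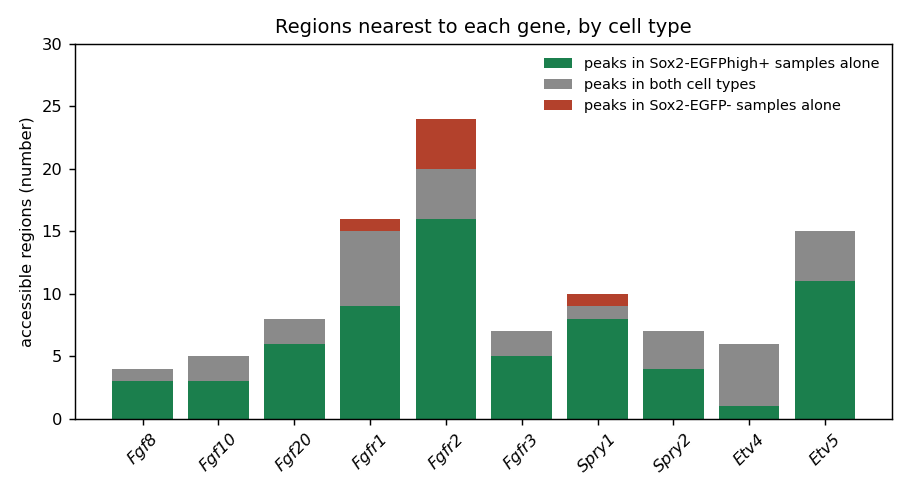
Number of accessible regions (y axis) nearest to each of the 10 genes (x axis), stacked by whether their peaks came from Sox2-EGFPhigh+ samples alone, both cell types or Sox2-EGFP- samples alone. *Fgfr2* has the tallest bar (24) and 4 of the 6 regions of Sox2-EGFP- cells alone, and *Etv4* is the gene with most regions in both types (5 of 6).

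At equal list length the excess of Sox2-EGFPhigh+ regions was smaller. Among the 20000 highest peaks of the 7 E14.5 and E16 lists, 58 regions near the Fgf genes remained, of which 23 were in Sox2-EGFPhigh+ samples alone (39.7%, against 33.6% of all such regions), 19 in both (32.8%, against 48.5%) and 16 in Sox2-EGFP- samples alone (27.6%, against 18%). Peaks in all 4 Sox2-EGFPhigh+ samples and no Sox2-EGFP- sample marked 3 regions (5.17%, against 5.42%), Fgf8 +24.7 kb, Fgfr1 -30.2 kb and Spry1 +17.2 kb. The reverse, all 3 Sox2-EGFP- samples and no Sox2-EGFPhigh+ sample, held for 5 regions (8.62%, against 4.9%). These were Fgfr1 -48.0 kb, Fgfr2 -53.3 kb, Fgfr2 +873 bp, Fgfr3 -26.0 kb and Etv4 -46.8 kb, named after their values were seen, and at Fgfr3 -26.0 kb the Sox2-EGFP- summits lay nearest to *Tacc3*. The 10 genes together held 25, 28, 28 and 25 such peaks in the Sox2-EGFPhigh+ samples (E14.5 replicates 1 and 2, then E16 replicates 1 and 2) and 29, 24 and 27 in the Sox2-EGFP- samples (E14.5, then E16 replicates 1 and 2), so the totals overlapped and the difference lay in which genes held them.

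To ask whether single genes gained or lost high-ranking peaks with the prosensory state, the peaks per gene among the 20000 highest of each list were compared. The test was a two-sided exact permutation test over the 7 samples. Peaks were counted singly, so a region with several peaks in a sample counted several times. With 4 samples against 3 the smallest p is 0.0286. *Fgf20* and *Spry1* held more peaks in each Sox2-EGFPhigh+ sample than in any Sox2-EGFP- sample, which happened at 5.22% of the 15672 genes tested, and *Etv4* held fewer, which happened at 4.33%. None of the 10 genes, nor any of the 15672, kept an adjusted p of 0.05 or less in the exact permutation test with Benjamini-Hochberg adjustment over all genes, and 1322 (8.44%) had an exact p of 0.05 or less before adjustment. The values below are given in the sample order just stated.

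**Figure D3:**
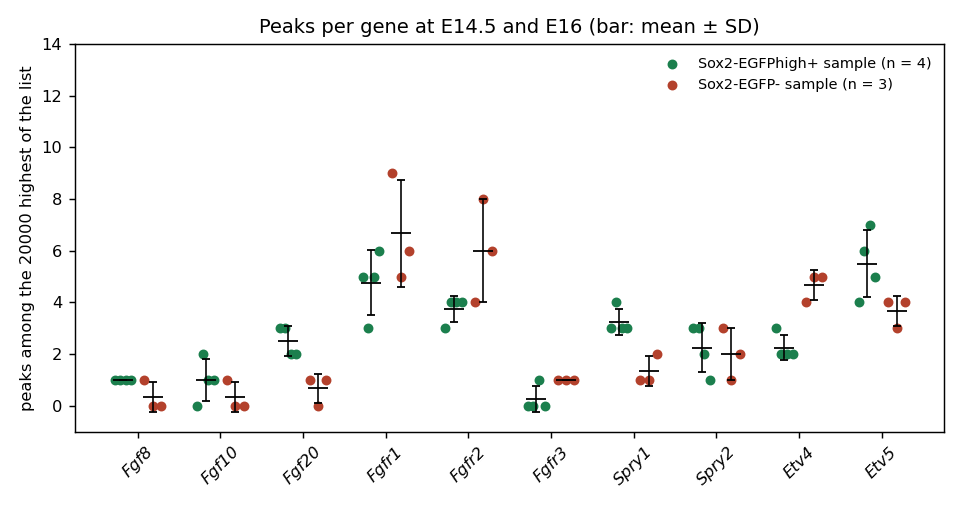
Peaks per gene among the 20000 highest of each list (y axis) for the 10 genes (x axis), with a dot for each E14.5 and E16 sample and bars for the mean and SD (n = 4 Sox2-EGFPhigh+ and n = 3 Sox2-EGFP- samples). The dots of the cell types separate at *Fgf20* and *Spry1*, where Sox2-EGFPhigh+ is higher, and at *Etv4*, where it is lower.

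The ligand *Fgf20*, expressed in the prosensory domain, held more high-ranking peaks in Sox2-EGFPhigh+ cells. Its counts were 3, 3, 2 and 2 in Sox2-EGFPhigh+ and 1, 0 and 1 in Sox2-EGFP- samples, a mean of 2.5 ± 0.577 (SD, n = 4) against 0.667 ± 0.577 (n = 3). The difference of 1.83 peaks had p = 0.0286 in the exact permutation test and an adjusted p of 0.339. No sample of one type overlapped the other. With a distance limit of 100 kb, which leaves out both distal regions described next, the difference fell to 0.583 (exact permutation p = 0.571), and with the 10000 highest peaks it was 0.75 (exact permutation p = 0.143). Apart from Fgf20 +412 bp, the peaks counted were distal and in Sox2-EGFPhigh+ cells alone. Fgf20 +109.5 kb, the distal region of this gene with the best mean rank over Sox2-EGFPhigh+ samples, had ranks 6730 and 15988.5 at E14.5 and 16015 in E16 replicate 2. Fgf20 +135.5 kb, whose sequence is printed above and which was named after its values were seen, was present at every stage, with ranks 2239.5 in E12 replicate 2, 14220.5 and 6971.5 at E14.5 and 21991.5 and 26205.5 at E16. Neither had a Sox2-EGFP- peak.

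Near the start sites of *Fgf20* the picture was different. Fgf20 -47 bp had a peak in all 9 samples, with ranks 4321.5 and 6161 at E12, 6687.5 and 3883 at E14.5 and 2676 and 2364 at E16 in Sox2-EGFPhigh+ cells, and 3043.5, 2105 and 1968.5 in Sox2-EGFP- cells. As percent of the list these were 31.3 and 81.3 at E12, 10.1 and 16.9 at E14.5 and 6.81 and 3.59 at E16, against 13.1, 8.83 and 8.24. Both types thus ranked it high at E14.5 and E16, whereas it stood low in the list of E12 replicate 2. This summit lies at the upstream start of a long *Fgf20* transcript, in an annotated coding exon of *Efha2* and 327 bp from a start site of that gene. Only the E12 peaks had their summit nearest to *Fgf20*, and all later ones lay nearest to *Efha2*, so this region adds nothing to the later *Fgf20* counts. Fgf20 +412 bp, in the coding exon at the other *Fgf20* start site, had ranks 16130, 10477.5, 8240 and 31373 in the later Sox2-EGFPhigh+ samples, 19156 at E14.5 and 19538.5 in E16 replicate 2 in Sox2-EGFP- samples, and no E12 peak. The ranks of the types overlapped.

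*Fgf8* was the one gene of the 10 without a region within 1 kb of a start site, although 59.7% of the 22238 protein-coding genes had such a region. Its strongest region was Fgf8 +24.7 kb (chr19:45791985-45793099), intergenic and downstream of the gene. This region had a peak in all 6 Sox2-EGFPhigh+ samples and no Sox2-EGFP- sample, as did 0.794% of all regions. Its ranks were 6168.5 and 4188 at E12, 8826 and 12578 at E14.5 and 10535.5 and 8832.5 at E16, with fold enrichments over the local background of 5.47, 5.24, 9.3, 3.97, 7.76 and 8.12 in that order. Each later Sox2-EGFPhigh+ sample placed it among its 20000 highest peaks, a limit that the shorter E12 lists do not reach. The nearest region to a start site, Fgf8 +5.6 kb in a coding exon, named after its values were seen, had ranks 34995.5 in E14.5 replicate 1 and 21055.5 and 29201 at E16 in Sox2-EGFPhigh+ samples, and 11553 at E14.5 and 21987 in E16 replicate 1 in Sox2-EGFP- samples. As percent of the list these were 52.8, 53.6 and 44.3 against 49.6 and 92.2, which overlapped. Among the 20000 highest peaks *Fgf8* held 1 in each Sox2-EGFPhigh+ sample and 1, 0 and 0 in Sox2-EGFP- samples (exact permutation p = 0.143), so the groups overlapped.

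*Fgf10* had few and low-ranking regions, and no peak at E12. At the start site, Fgf10 -116 bp had ranks 31734, 9870.5, 17116 and 29971 in the later Sox2-EGFPhigh+ samples and 14376 and 22707 in Sox2-EGFP- samples at E14.5 and in E16 replicate 2, and these overlapped. Fgf10 -2.8 kb (chr13:119500095-119501031) overlaps an element with reported otic activity. It was found in 3 Sox2-EGFPhigh+ samples, E14.5 replicate 1 (rank 29703) and both E16 replicates (28716.5 and 35679), and in no Sox2-EGFP- sample. All 3 ranks lie beyond the length of every Sox2-EGFP- list, so the absence there cannot be told apart from list length. The distal region with the best mean rank, Fgf10 +172.1 kb, had a peak in all 7 later samples, with ranks from 11329.5 to 30102.5 in Sox2-EGFPhigh+ and from 20745 to 23504.5 in Sox2-EGFP- cells. Among the 20000 highest, *Fgf10* held 0, 2, 1 and 1 peaks against 1, 0 and 0 (exact permutation p = 0.371). In the 3 pairs of samples with the same stage and replicate number, the Sox2-EGFPhigh+ count was higher by 1 each time (exact permutation p = 0.25, the smallest that 3 pairs allow).

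The receptor genes held many regions of both types. *Fgfr1* had peaks at its promoter in all 9 samples. Fgfr1 -33 bp (chr8:26629036-26630298) had ranks 3349.5 and 2108.5 at E12, 6988 and 2927 at E14.5 and 6837 and 7458 at E16 in Sox2-EGFPhigh+ cells, and 7527, 5355 and 12559 in Sox2-EGFP- cells. The types overlapped. Its intron region Fgfr1 +4.7 kb (chr8:26646951-26648177), measured from an internal start site, had ranks 959.5 and 1720.5 at E12, 8923, 7591.5, 7436 and 8109.5 in the later Sox2-EGFPhigh+ samples and 12793, 10939 and 13654.5 in Sox2-EGFP- samples. Of 16 regions near the 10 genes with a peak in all 7 later samples, it was the 1 where every Sox2-EGFPhigh+ rank was better than every Sox2-EGFP- rank, against 4.97% of all such regions. By percent of the list 4 of the 16 separated this way, against 16.2%, namely Fgfr1 +4.7 kb, Fgfr1 -33 bp, Fgf10 +172.1 kb and Spry2 -532 bp, and when peaks were ranked by fold enrichment 0 did. At Fgfr1 +4.7 kb the fold enrichments were 8.52, 4.31, 6.89 and 7.06 in the later Sox2-EGFPhigh+ samples against 3.98, 6.73 and 4.15, which overlapped.

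Upstream of *Fgfr1* lay regions of each cell type alone. Fgfr1 -30.2 kb (chr8:26593714-26594517) had a peak in all 6 Sox2-EGFPhigh+ samples, with ranks 6540 and 1590.5 at E12, 16669 and 18567 at E14.5 and 15663 and 15061 at E16, and in no Sox2-EGFP- sample. The E12 ranks were the better ones, but an E12 rank cannot exceed the length of its short list. Fgfr1 -120.5 kb was found in Sox2-EGFP- cells alone, with ranks 13993.5 at E14.5 and 13329.5 in E16 replicate 1. Between them, Fgfr1 -48.0 kb had ranks 8662, 10229 and 9703.5 in Sox2-EGFP- cells, whereas 3 Sox2-EGFPhigh+ samples placed it at 33486, 21340.5 and 59001.5. In percent of the list these were 37.2, 42.9 and 40.6 against 50.5, 54.3 and 89.6. In sum over the gene, *Fgfr1* held 5, 3, 5 and 6 of the 20000 highest peaks against 9, 5 and 6 (difference -1.92, exact permutation p = 0.286), so the counts overlapped.

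*Fgfr2* held 4 of the 6 regions found in Sox2-EGFP- cells alone. At the promoter, Fgfr2 -40 bp (chr7:137409236-137410251) had ranks 10761, 10246, 10945 and 11050 in the later Sox2-EGFPhigh+ samples and 5811.5, 11131.5 and 7009 in Sox2-EGFP- samples, and no E12 peak. The ranks overlapped through E16 Sox2-EGFP- replicate 1 alone. Next to it, 119 bp away in an intron, Fgfr2 +873 bp (chr7:137408481-137409116) had ranks 13085, 19221 and 12476.5 in the 3 Sox2-EGFP- samples and no Sox2-EGFPhigh+ peak. This pattern was found at 2.34% of all regions and 0.286% of those within 1 kb of a start site. When peaks within 200 bp were merged, a distance chosen after this gap was seen, the region joined the promoter and 5 regions of Sox2-EGFP- cells alone were left.

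The other *Fgfr2* regions of Sox2-EGFP- cells alone were distal and came from both E16 samples without the E14.5 sample. Fgfr2 -100.5 kb had ranks 14708 and 19250.5, Fgfr2 -65.8 kb 17899.5 and 21723.5 and Fgfr2 +260.5 kb 19617.5 and 12986 in E16 replicates 1 and 2. The upstream ones are annotated as intronic because a single transcript of this gene is drawn from a start site far upstream of the others. In contrast, Fgfr2 +187.7 kb, the distal region with the best mean rank in Sox2-EGFPhigh+ cells, had ranks 6738 in E12 replicate 1, 8275 and 8709 at E14.5 and 10829 and 17769 at E16, against 12923.5 and 13336 in E16 Sox2-EGFP- cells. Among the 20000 highest, *Fgfr2* held 3, 4, 4 and 4 peaks in Sox2-EGFPhigh+ and 4, 8 and 6 in Sox2-EGFP- samples. The mean was 3.75 ± 0.5 (SD, n = 4) against 6 ± 2 (n = 3), and the exact permutation p was 0.114.

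*Fgfr3* had its start-site region in all 7 later samples. Fgfr3 +3 bp (chr5:34064070-34065041), over its main start site, had ranks 33671, 21702.5, 19326.5 and 26728.5 in the later Sox2-EGFPhigh+ samples and 13309, 11923.5 and 18830 in Sox2-EGFP- samples. Every Sox2-EGFP- rank was better, which was the case at 3 of the 16 regions near the 10 genes with a peak in all 7 samples, against 8.13% of all such regions. A pair of the Sox2-EGFPhigh+ ranks lie beyond the length of every Sox2-EGFP- list. As percent of the list the values were 50.8, 94.5, 49.2 and 40.6 against 57.1, 50 and 78.8, so the types overlapped at this region, and by that measure Sox2-EGFP- cells were better at 1 of the 16 regions, Etv5 -78 bp, against 0.361% of all such regions. A neighbouring region, Fgfr3 +207 bp at an internal start site, was seen in Sox2-EGFPhigh+ cells alone at ranks 39991 and 32130, beyond the length of the Sox2-EGFP- lists. No *Fgfr3* region had a peak in the short E12 lists. The study, which compared reads, named *Fgfr3* among the leading genes of a cochlear development set enriched at E12 over E14.5. The missing E12 peaks therefore do not show lower accessibility at E12. The best distal region in Sox2-EGFPhigh+ cells, Fgfr3 -21.0 kb, had ranks 23775, 31988 and 22862 in 3 samples, and among the 20000 highest the gene held 0, 0, 1 and 0 peaks against 1, 1 and 1 (exact permutation p = 0.143).

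**Figure D4:**
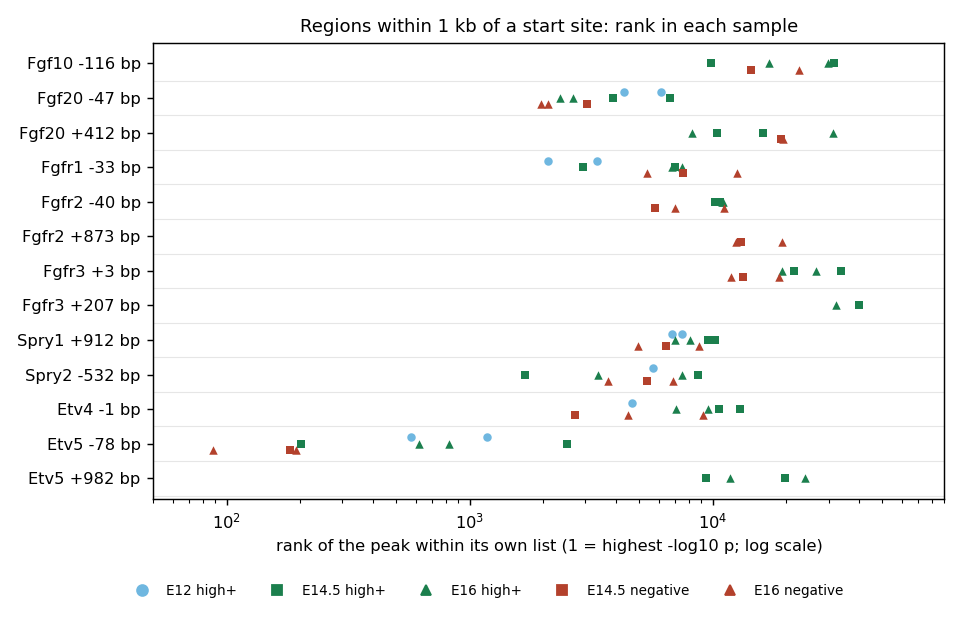
Rank of each region within 1 kb of a start site within its own list (x axis, log scale, 1 is the highest -log10 p) for the 13 such regions (y axis), with a symbol for each sample that has a peak, coloured by cell type and shaped by stage. Etv5 -78 bp sits farthest left in both cell types, at 88 to 2524, and the Fgfr3 +3 bp symbols of Sox2-EGFP- cells all lie left of those of Sox2-EGFPhigh+ cells, whose lists were of other lengths.

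Among the inhibitors, *Spry1* held more high-ranking peaks in Sox2-EGFPhigh+ cells and *Spry2* did not separate. *Spry1* counts were 3, 4, 3 and 3 in Sox2-EGFPhigh+ and 1, 1 and 2 in Sox2-EGFP- samples, a mean of 3.25 ± 0.5 (SD, n = 4) against 1.33 ± 0.577 (n = 3). The difference was 1.92 peaks (exact permutation p = 0.0286, adjusted p = 0.339), with no overlap. With the 10000 highest peaks it fell to 0.25 (exact permutation p = 1), and with peaks ranked by fold enrichment it was 1.92 with overlap (exact permutation p = 0.0857). Counted peaks can share a region. Among the 20000 highest, E16 replicate 1 of Sox2-EGFPhigh+ cells held Spry1 +912 bp and Spry1 +17.2 kb alone, although its count was 3. E16 replicate 2 of Sox2-EGFP- cells held Spry1 +912 bp and Spry1 +14.2 kb, so by region the types overlapped. In E14.5 replicate 2 of Sox2-EGFPhigh+ cells the count of 4 covered Spry1 -70.1 kb, Spry1 +912 bp and Spry1 +17.2 kb alone. Over all samples, summits lay up to 1093 bp apart at Spry1 +912 bp, which was 1544 bp wide. At Spry1 +17.2 kb, 503 bp wide, they lay up to 105 bp apart. Which region held the extra peaks was not tested. At the promoter the ranks of the types overlapped. Spry1 +912 bp had a peak in all 9 samples, with ranks 7461 and 6815.5 at E12, 9606 and 10195.5 at E14.5 and 6980 and 8073.5 at E16, and 6420, 4934.5 and 8806 in Sox2-EGFP- cells. The distal region Spry1 +17.2 kb (chr3:37555943-37556445) had a peak in 5 Sox2-EGFPhigh+ samples, at ranks 4665.5 in E12 replicate 1, 6919.5 and 12522 at E14.5 and 9759 and 11705 at E16, and in none of the Sox2-EGFP- samples. A peak in at least 5 Sox2-EGFPhigh+ samples and no Sox2-EGFP- sample was found at 4 of the 102 regions (3.92%, against 2.74% of all regions). On the same side of the gene, Spry1 +14.2 kb was found in Sox2-EGFP- cells alone, with ranks 23110.5 and 17877 at E16.

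*Spry2* showed peaks of both types around its start. Spry2 -532 bp had ranks 5689 in E12 replicate 1, 8717, 1695, 3392 and 7510.5 in the later Sox2-EGFPhigh+ samples and 5387.5, 3717 and 6853 in Sox2-EGFP- samples, and Spry2 -2.1 kb had 7234, then 29731, 9979, 18382 and 22919, and 8349.5, 20805 and 14126.5. At both, the ranks of the types overlapped. The gene held 3, 3, 2 and 1 of the 20000 highest peaks against 3, 1 and 2 (exact permutation p = 1), with a mean difference of 0.25 whose sign changed with several settings.

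The Ets genes differed from each other. *Etv4* held fewer high-ranking peaks in Sox2-EGFPhigh+ cells, with 3, 2, 2 and 2 against 4, 5 and 5 in Sox2-EGFP- samples. The mean was 2.25 ± 0.5 (SD, n = 4) against 4.67 ± 0.577 (n = 3), and the difference of -2.42 peaks had p = 0.0286 in the exact permutation test and an adjusted p of 0.339. With the 10000 highest peaks the difference was -0.75 (exact permutation p = 0.429). In E16 replicate 2 of Sox2-EGFP- cells the count of 5 exceeded the number of *Etv4* regions with a peak, so a region there held an extra counted peak. Its region was not determined. Apart from that peak, the regions behind the difference were distal and present in both types over the full lists. Etv4 -46.8 kb, for example, had ranks 11049.5, 12616.5 and 12535 in Sox2-EGFP- cells, whereas E14.5 replicate 1 and E16 replicate 2 of Sox2-EGFPhigh+ cells placed it at 61471.5 and 28063.5. Both of these ranks lie beyond the length of every Sox2-EGFP- list, and as percent of the list the values were 92.7 and 42.6 against 47.4, 52.9 and 52.4, which overlapped. The promoter region Etv4 -1 bp had ranks 4672.5 in E12 replicate 1, 10651, 12985, 9551.5 and 7052.5 in the later Sox2-EGFPhigh+ samples and 2713, 4504 and 9136 in Sox2-EGFP- samples. The intron region Etv4 +12.7 kb had 6023, 15537.5, 7931.5 and 9856.5 against 7768.5, 8468.5 and 5854, and the types overlapped at both.

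The promoter of *Etv5* was the most prominent region of the set. Etv5 -78 bp (chr16:22439310-22440257) had ranks 1185 and 575.5 at E12, 2524 and 202 at E14.5 and 823 and 620 at E16 in Sox2-EGFPhigh+ cells, and 183, 88 and 193 in Sox2-EGFP- cells. Its fold enrichment was 6.98 to 8.78 in Sox2-EGFPhigh+ and 7.25 to 11.2 in Sox2-EGFP- samples. All Sox2-EGFP- ranks were better, but the nearest values, 193 and 202, were close. As percent of the list they were 3.81, 0.88, 2.09 and 0.941 in the later Sox2-EGFPhigh+ samples against 0.785, 0.369 and 0.808, in the same order. Etv5 -78.2 kb, in an intron of *Dgkg* and named after its values were seen, had ranks 35995, 9393.5, 17946 and 14839 against 3743.5, 7524 and 2418, but as percent of the list 54.3, 40.9, 45.6 and 22.5 against 16.1, 31.5 and 10.1, which overlapped. Of the 13 distal *Etv5* regions, 10 had Sox2-EGFPhigh+ peaks alone, beside 78.5% of all distal regions. The best of the distal regions, Etv5 +7.4 kb in an intron of the gene, had ranks 3232.5 in E12 replicate 2, 6286, 6952, 6577 and 3648.5 in the later Sox2-EGFPhigh+ samples and 3986, 5055 and 3475.5 in Sox2-EGFP- samples. *Etv5* counts among the 20000 highest were 4, 6, 7 and 5 against 4, 3 and 4, which overlapped at 4 (difference 1.83, exact permutation p = 0.114). In the 3 pairs of the same stage and number the Sox2-EGFPhigh+ count was higher by 2, 4 and 1 (exact permutation p = 0.25). With a distance limit of 100 kb the difference was 1.5 and the types did not overlap (exact permutation p = 0.0286).

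**Figure D5:**
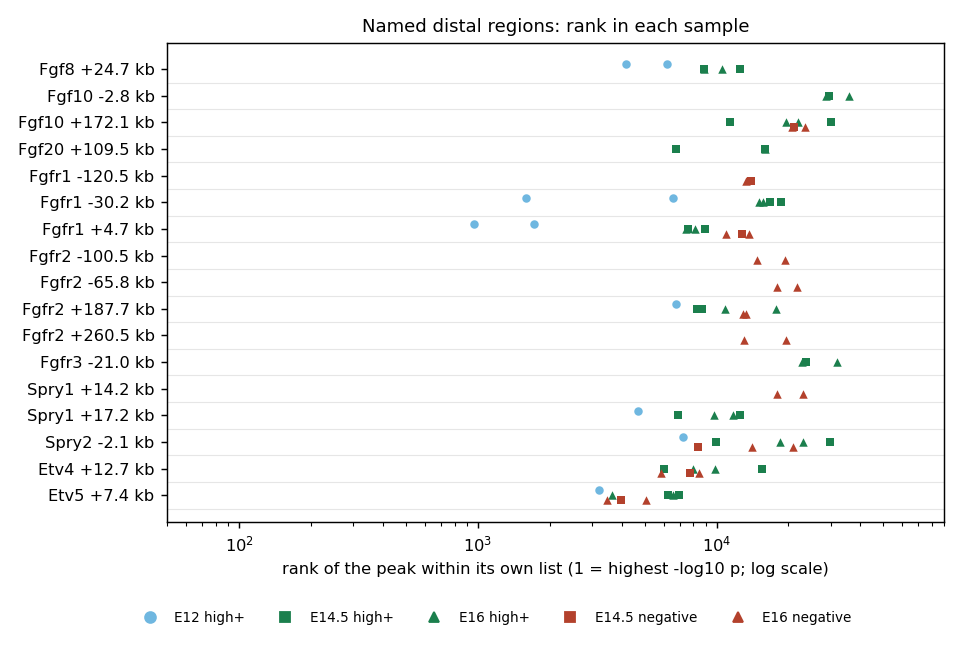
Rank within its own list (x axis, log scale) of the 17 named distal regions (y axis), with a symbol for each sample that has a peak, coloured by cell type and shaped by stage. Fgf8 +24.7 kb, Fgf10 -2.8 kb, Fgf20 +109.5 kb, Fgfr1 -30.2 kb, Fgfr3 -21.0 kb and Spry1 +17.2 kb show no Sox2-EGFP- symbol, and 5 regions show Sox2-EGFP- symbols alone. At Fgfr1 +4.7 kb the E12, later Sox2-EGFPhigh+ and Sox2-EGFP- symbols follow each other from left to right.

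By stage, few Fgf regions were detected at E12. An E12 peak was present at 17 of the 96 regions with a Sox2-EGFPhigh+ peak (17.7%, against 21.3% of all regions with a Sox2-EGFPhigh+ peak). *Fgfr1* had 5 of these, *Etv5* 3, *Fgf20*, *Spry1* and *Spry2* 2 each, *Fgf8*, *Fgfr2* and *Etv4* 1 each, and *Fgf10* and *Fgfr3* none. For distal regions the share was 13.1%, against 10.4%. The E12 lists are the shortest and come from the samples with the fewest reads. The part of this in the stage difference was not tested. With 2 samples a stage no test was made.

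At 7500 peaks from each list most of the regions left had an E12 peak. Of 18 regions near the 10 genes with a Sox2-EGFPhigh+ peak among these, 16 had an E12 peak (88.9%, against 73.5% of all such regions), 7 had one in both E12 samples (38.9%, against 32.4%), and 5 had one at E12 and at no later stage (27.8%, against 16.8%). The 10 genes held 13 and 9 of the 7500 highest peaks at E12, 7 and 5 at E14.5 and 6 and 4 at E16 in Sox2-EGFPhigh+ cells, so both E12 samples exceeded all later ones, although 7500 peaks are nearly the whole list of E12 replicate 2. *Fgfr1* held 4 and 3 at E12 against 1 to 2 later, and *Fgf8* 1 and 1 against 0. The other listed genes did not separate, such as *Fgf20* (1 and 2 against 1, 1, 0 and 0) and *Spry1* (2 and 1 against 1, 0, 1 and 0). The share of all genes that separate by stage is not given here, so neither these genes nor the totals can be set against a background. Of the 7 regions with a peak in all 6 Sox2-EGFPhigh+ samples, 3 had better ranks in both E12 samples than in all later ones (42.9%, against 16.9% of all such regions), namely Fgf8 +24.7 kb, Fgfr1 -30.2 kb and Fgfr1 +4.7 kb, and 0 had worse ranks in both (7.88% of all such regions did). An E12 rank cannot exceed the length of its short list, and by percent of the list the order turned, with 0 of the 7 better at E12 (0.262% of all such regions) and 4 worse (57.1%, against 55.2%). Fgf8 +24.7 kb was then at 44.6 and 55.3 at E12 and at 13.3, 54.8, 26.8 and 13.4 later, which overlapped.

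The wider pathway was counted from a list of 36 further genes (other Fgf ligands, *Fgfr4* and *Fgfrl1*, Sprouty and Spred inhibitors, *Dusp4* and *Dusp6*, *Etv1* and adaptors or co-receptors), of which 35 were in the annotation under that symbol and 34 had a region. Their 227 regions were split into 166 of Sox2-EGFPhigh+ cells alone (73.1%), 50 of both (22%) and 11 of Sox2-EGFP- cells alone (4.85%), beside 65.5%, 28.8% and 5.63% of all regions. Of the 28 with a peak among the 20000 highest, *Fgf1* and *Fgf3* were higher in every Sox2-EGFPhigh+ sample than in any Sox2-EGFP- sample and *Fgf2* lower, beside 5.22% and 4.33% of all genes tested. *Fgf3*, an early otic ligand, held 2, 1, 1 and 2 peaks against 0 in all 3 Sox2-EGFP- samples.

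The letters of 4 binding motifs were searched on both strands in 300 bp around the summits, as a description. The Sox letters CCTTTGT were in 8 of the 89 distal regions (8.99%, against 12.6% of all distal regions), the Tead letters GGAATG in 20 (22.5%, against 20.5%), the Gata letters AGATAA in 13 (14.6%, against 15.5%) and the Ets letters CCGGAAG in 2 (2.25%, against 2.2%). None of the 13 regions within 1 kb of a start site held the Ets letters, which 14.7% of all such regions did, and 2 held the Sox letters (15.4%, against 4.16%), Etv4 -1 bp and Fgfr3 +207 bp. Of the regions whose sequence is printed above, Fgf8 +24.7 kb and Fgfr1 +4.7 kb held a Sox match and Fgfr1 -30.2 kb and Spry1 +17.2 kb a Tead match. GC content averaged 52.3% ± 6.82 (SD, n = 89) in the distal regions, against 51% ± 6.6 in all distal regions, and 68.4% ± 7.35 (n = 13) near the start sites, against 64.7% ± 8.29.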

How the data were processed

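ATAC-seq peak lists of 9 samples of sorted mouse cochlear duct cells were analysed, in groups taken from the titles and source names. Per the methods of the study, reads were trimmed (Trim Galore), aligned to mm9 (Bowtie2) and cleared of duplicate and mitochondrial reads (Picard, SAMtools). Peaks were called sample by sample (MACS2), and those replicated within a sample type were kept. The deposited fold enrichment is the ratio of signal at a summit to its local background. The deposited -log10 p and -log10 q come from the same peak calls, and the deposited score is 10 times the -log10 q, unused beyond this check. The sample descriptions carry a different submission name for the E16 replicate 1 samples of both types (here batch a) than for the other 7 samples (batch b).

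Start sites came from 51733 protein-coding transcripts of GENCODE vM1, and sequences from the mm9 genome, in which no peak passed the end of a chromosome. Peaks of all lists were merged within 100 bp and ranked by -log10 p within their list. To allow for list length, the 20000 highest peaks (cell type) or 7500 highest (stage) were used. Peaks per gene were compared by a two-sided exact permutation test over samples (35 ways), with Benjamini-Hochberg adjustment over 15672 genes. Counts over regions were described beside the same counts over all regions, without a test. The regions named are those within 1 kb of a start site, the distal region with the best mean Sox2-EGFPhigh+ rank, distal regions with a peak in all 6 Sox2-EGFPhigh+ samples and none of the other type, distal regions with at least 2 of 3 Sox2-EGFP- samples and none of the other type, and any over a reported otic element, plus those said to have been named after their values were seen, and regions picked by the rank and equal-length comparisons. Regions that separated by percent of the list were listed by name, and E12 ranks recomputed as such percents, after seeing the data. The members, lists and tests were chosen with earlier results of these data known. Analyses used Python 3.11.15, NumPy 2.4.6, pandas 2.3.3 and SciPy 1.17.1, and merging, nearest genes and the permutation test were tested on simulated data. A planned motif and a planned marker gene are not reported here. Samples of the same type are separate litters. Alternatives covered the merging distance, distance limit, transcripts, list length, ranking, batch, pairing and leaving out each sample.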

Additional observations from a re-analysis of the deposited data

Results flagged for a closer look

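Among 43 groups of 4 values from the later Sox2-EGFPhigh+ samples (peaks per gene among the 20000 highest, and ranks of regions with a peak in all 4), 5 had a sample set apart from the other 3 by Dixon's gap, where chance alone flags about 1 in 20. For *Fgfr2* the count of 3 in E14.5 replicate 1 lay apart from 4 in the others, for *Fgfr3* the count of 1 in E16 replicate 1 from 0, for *Spry1* the count of 4 in E14.5 replicate 2 from 3, and for *Etv4* the count of 3 in E14.5 replicate 1 from 2. Each of these is a step of 1 peak among otherwise equal counts, which Dixon's gap flags whatever the size of the step. The rate of 1 in 20 does not hold for such tied counts. At the promoter region Fgfr1 -33 bp, the rank of 2927 in E14.5 replicate 2 stood apart from 6837, 6988 and 7458 in the other samples.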

How the results depend on the processing

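Of 321 recomputed values, 13 single-gene values changed sign, 7 single-gene calls were lost, 12 were gained, and 49 counts or shares moved. *Fgf20*, *Spry1* and *Etv4* kept their direction, except with the 5000 highest peaks, where *Fgf20* was at 0 and *Spry1* at -0.333. With start sites of all GENCODE transcripts there were 62 regions, 39 in Sox2-EGFPhigh+ cells alone and 2 in Sox2-EGFP- cells alone, and the differences changed sign at *Fgfr2* (0.0833) and *Spry2* (-0.5). A limit of 100 kb left 3 regions of Sox2-EGFP- cells alone, ended the separation of *Fgf20* (0.583) and gave one for *Etv5* (1.5). Merging the 20000 highest peaks anew gave 23, 18 and 15 regions (41.1% in Sox2-EGFPhigh+ cells alone). In batch b alone there was 1 region of Sox2-EGFP- cells alone, 2 genes were lower, ranks separated at 2 and 5 regions (Sox2-EGFPhigh+ better, then Sox2-EGFP- better), and *Spry2* changed sign (-0.167). Batch a holds 1 sample of each type and gives no test. The 10000 and 5000 highest peaks left 0 genes higher and 0 lower without overlap. Signs then changed at *Fgfr1* (1.42 and 0.25) and *Etv5* (-0.583 and -1.08), and at *Spry2* with 10000 (-0.0833). All peaks per 10000 gave 5 genes higher and 2 lower, with sign changes at *Fgfr3* (0.631) and *Spry2* (-0.156). The shares of all genes that separate are not given for these settings, so such counts of genes have no background. Ranking by fold left 1 gene higher and 0 regions with better Sox2-EGFPhigh+ ranks (*Spry2* -0.833), while percent of the list gave 4 and 1 regions. At 7500 peaks, 88.2% of regions had an E12 peak.

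Leaving out both of the longest lists, chosen after seeing the data, gave 50 regions (15, 19 and 16 by type, 30% in Sox2-EGFPhigh+ cells alone), an E12 share of 47.1%, and rank separation at 2 and 5 regions. Leaving out 1 sample at a time gave 67 to 102 regions, 31 to 72 in Sox2-EGFPhigh+ cells alone (46.3% to 73.2%), 24 to 30 in both and 1 to 9 in Sox2-EGFP- cells alone. It gave 2 to 3 genes higher, 1 to 2 lower, 9 to 17 regions with an E12 peak (9.38% to 29.3%), and 1 to 2 and 3 to 6 regions with separated ranks. The lowest counts of regions came without E14.5 Sox2-EGFPhigh+ replicate 1 (67), of E12 peaks without E12 replicate 1 (9), and of Sox2-EGFP- regions without E16 Sox2-EGFP- replicate 1 (1), where *Spry2* was at -0.25 (range over samples -0.25 to 0.75). The replicate block used 3 pairs of the same stage and number (smallest p 0.25). In these pairs 4 genes were higher in every pair (*Fgf10*, *Fgf20*, *Spry1*, *Etv5*) and *Etv4* was lower in every pair. The share of all genes that go 1 way in every pair is not given here, so this count has no background. Sox2-EGFP- cells were in part collected in parallel with Sox2-EGFPhigh+ cells, but the labels tie no number to a litter. The E16 deviations of equal numbers correlated at 0.0628, but with 2 E16 replicates of each type this cannot show whether samples were paired. The main test treated the samples as unpaired. The causes of these moves were not tested beyond what each setting removes. The lists hold no reads, and list length limits what a missing peak says.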
